A study of Mus musculus with 20 samples.

Results

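The enzymes of cholesterol and fatty acid synthesis were followed in a breast cancer (BC) model, from the primary tumour to the lung metastasis of the same mouse. The set was given as 30 gene symbols, and 29 of them had a row among the 15465 genes of the deposited table; Hmgcs1 was not analysed here. Of the 29, 28 reached a normalised read count of at least 1 in at least 4 of the 8 libraries and were tested with 14003 genes in all. Thrsp, a lipogenic regulator of liver and fat, was too low to test. The 28 genes comprised 13 enzymes of sterol synthesis, 3 regulators of the pathway and 12 genes of fatty acid synthesis, elongation, desaturation and phospholipid remodelling.

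RNA was sequenced from whole pieces of tissue, 4 BC primary tumours and 4 BC lung metastases, from mice numbered 1 to 4 in the sample titles. All tumours were 4T1 derived, that is, grown from a mouse mammary carcinoma line, in orthotopic models sampled at 28 days, with no treatment. The groups therefore share a single tumour line and differ in site. The pancreatic tumours of the same series, whose columns do not line up with the gene names, were not used.

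Cholesterol is built from acetyl-CoA by way of mevalonate, isoprenoid units, squalene and lanosterol, and fatty acids from acetyl-CoA by way of malonyl-CoA. Both routes are switched on by SREBP transcription factors, which INSIG and SCAP proteins hold in the endoplasmic reticulum when sterol is plentiful. Growing tumour cells draw on these routes for membranes, adipocytes for storage fat, and alveolar type 2 cells of the lung for the lipids of surfactant.

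Values are normalised read counts, scaled by the authors to a level of about 1000000 per library, and are given for mice 1 to 4 in that order. Depth was 15447918 to 28995834 reads per library, lowest in lung metastasis 3. Keratins listed as carcinoma epithelium markers were read in every library, with Krt8 between 225 and 1462. Among 6 such markers, 3 had a positive and 3 a negative change, and Krt19 alone was called (log2 change 3.03). Whether they were read from carcinoma or from lung epithelium was not tested. The lung metastases also held lung tissue: the summed level of 16 lung epithelium markers was 7851 to 36549 in them and 105 to 146 in the primary tumours, with the highest value in lung metastasis 3, and 14 of the 16 were called higher. Neutrophil markers (10 of 10 called higher) and endothelial markers (4 of 7) moved the same way, while all 9 tested macrophage markers had a negative change and 1 passed. The 11 adipocyte markers went both ways, with a summed level of 132 to 507 in metastases and 111 to 408 in primary tumours, and of 8 tested 4 had a positive and 4 a negative change. Fabp4 alone was called (log2 change -3.04), and Adipoq and Lep had 0 reads in the 4 lung metastases and were read in 3 and 2 of the primary tumours. Without passing, Lpl (2.06) and Pparg (0.78) had more in the metastasis of every mouse and Cfd (-3.06) had less. The highest sum, in lung metastasis 3, rested mostly on Lpl (247), Pnpla2 (147) and Lipe (87.5). In such mixtures, fewer cells of a type and less RNA per cell cannot be told apart, and the part that these cells play in the results below was not tested.

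Promoters are shown first because the sterol and fatty acid genes are known to share control elements. RefSeq promoter windows (GRCm38.p6, 250 bases before to 50 after each annotated start) were matched by symbol for 23 of the 29 genes. The CCAAT box, which binds NF-Y, a factor known to act with SREBP, was present on either strand in 19 of the 23 genes (82.6%), against 41.1% of all 27025 genes in the table and 42.4% of the 9558 tested genes that had a window. CACGTG, an E-box, was present in 5 of the 23 (21.7%, against 8.09% of all genes and 11.6% of tested genes), and TCACNCCAC, the core of the classical sterol regulatory element, in 0 of the 23 (1.44% of all genes), both strands searched. A gene with several windows counts once. The 150 bases before the annotated start are given for the 3 called genes with a window (Elovl5, Elovl1, Lpcat1) and for 3 enzymes of the central routes (Lss, Cyp51, Fasn), 5′ to 3′ in the direction of the gene, with CCAAT or its reverse complement in capitals. In Fasn, boxes of opposite strands overlap.
Elovl5, chr9:77917215-77917364, plus strand: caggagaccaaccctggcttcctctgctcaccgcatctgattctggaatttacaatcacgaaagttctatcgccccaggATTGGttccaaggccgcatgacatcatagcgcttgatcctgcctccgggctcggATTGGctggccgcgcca
Elovl1, chr4:118427943-118428092, plus strand: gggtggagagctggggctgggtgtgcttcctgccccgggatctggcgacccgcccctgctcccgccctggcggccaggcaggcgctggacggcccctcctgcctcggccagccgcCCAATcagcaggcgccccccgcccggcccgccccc
Lpcat1, chr13:73467081-73467230, plus strand: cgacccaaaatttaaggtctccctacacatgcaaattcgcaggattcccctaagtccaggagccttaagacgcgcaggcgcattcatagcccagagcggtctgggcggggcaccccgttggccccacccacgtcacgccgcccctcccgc
Lss, chr10:76531455-76531604, plus strand: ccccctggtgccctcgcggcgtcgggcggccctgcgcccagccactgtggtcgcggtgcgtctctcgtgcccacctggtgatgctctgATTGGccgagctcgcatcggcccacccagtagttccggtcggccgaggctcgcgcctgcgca
Cyp51, chr5:4104698-4104847, minus strand: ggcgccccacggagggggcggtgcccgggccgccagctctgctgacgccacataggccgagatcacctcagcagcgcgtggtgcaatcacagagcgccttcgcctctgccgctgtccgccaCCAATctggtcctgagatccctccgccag
Fasn, chr11:120824548-120824697, minus strand: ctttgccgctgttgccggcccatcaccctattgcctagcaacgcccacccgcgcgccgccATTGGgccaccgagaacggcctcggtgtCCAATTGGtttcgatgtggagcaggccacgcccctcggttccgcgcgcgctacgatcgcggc
Lpcat1, called below, had no box in its whole window, whereas Elovl5 had 2 in the printed stretch and Fasn 3. A match here is a description of letters and not a measured binding site.

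Between primary tumour and lung metastasis, 4 of the 28 tested genes were higher in metastases at an adjusted p under 0.05 and 0 were lower (limma, Benjamini-Hochberg over all genes). By limma, 8 of the 28 had an unadjusted p under 0.05, beside 3225 of all 14003 genes. The 4 called genes were Scd1, Elovl1, Elovl5 and Lpcat1, all of them genes that desaturate, elongate or reattach fatty acids. None of the 13 sterol enzymes and none of the 3 regulators passed. The share called higher was 14.3%, against 7.18% of all 14003 genes (1.96% were called lower). The median log2 change was 0.32 over the 28 genes and -0.06 over all genes. Of the 28 changes 24 were positive, beside 6312 of all 14003. Mouse 2 weighed on this direction: it held the highest metastasis for 17 of the 28 and the lowest primary tumour for 18. These 2 counts are without the share over all genes. On read counts recovered from the values, edgeR called 3 members higher (6.02% of all genes), without Scd1, and DESeq2 called 6 (10.5% of all genes), adding Lss and Fads2; neither called a member lower.

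**Figure D1:**
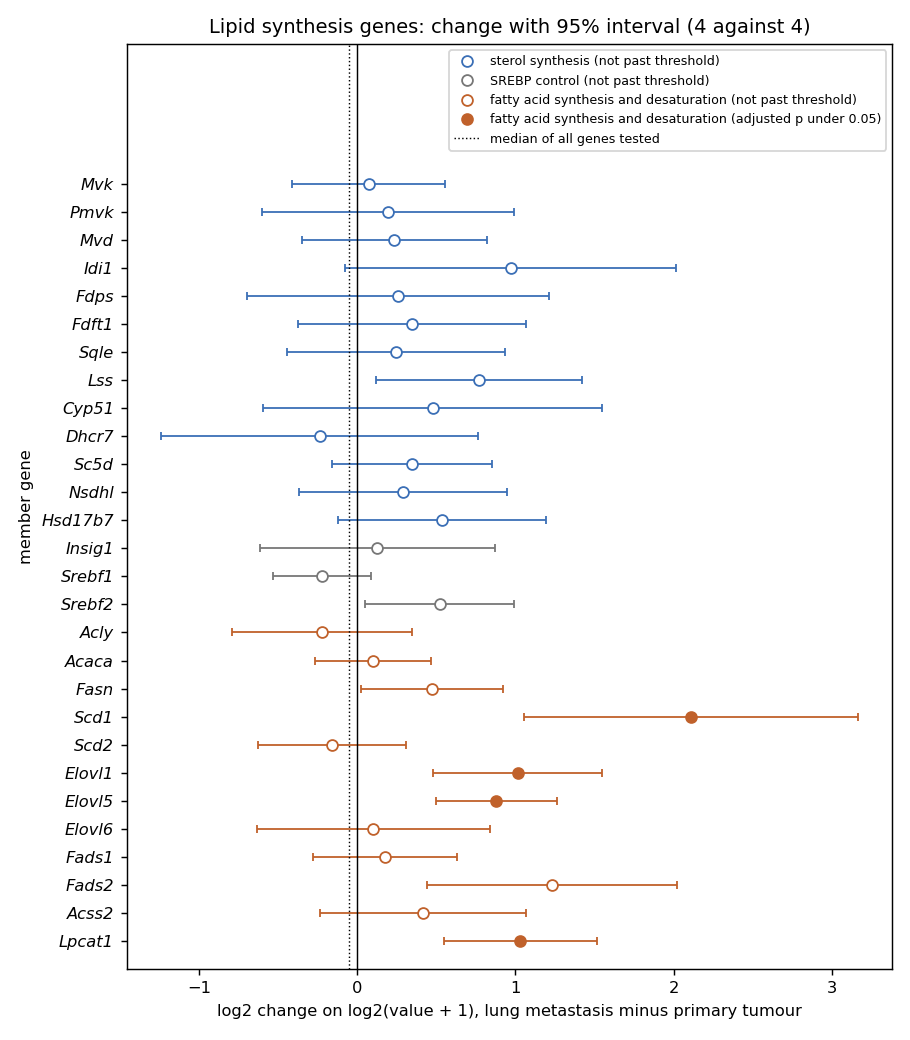
Change of the 28 tested genes between lung metastasis and primary tumour (x axis, log2 of normalised count + 1), with 95% intervals from limma; filled points passed an adjusted p of 0.05 and the dotted line is the median of all genes tested. Scd1 lies farthest right at 2.11, and Dhcr7 farthest left at -0.24 with an interval that spans 0.

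Scd1 encodes stearoyl-CoA desaturase 1, which turns saturated into monounsaturated fatty acids. It stood at 330.5, 381, 308 and 179 in the lung metastases and at 150.4, 33.8, 110.2 and 33.5 in the primary tumours. All metastases lay above all primary tumours, and the spread among primary tumours was wide. The ratio of the means was 3.65, the largest among the 28 genes (log2 change 2.11, SE 0.477, adjusted p = 0.0196). Its call was lost without lung metastasis 1 or 2 or primary tumour 4 (adjusted p 0.0584 to 0.0656) and with edgeR (adjusted p = 0.0513; 0.00138 to 0.0656 over 19 alternatives). Among the primary tumours, Scd1 was highest in 1 and 3, the 2 libraries in which the adipocyte marker Adipoq read above 1 (12.99 and 4.01, against 0 and 0.282 in 2 and 4). The adipocyte list was not uniform: 6 of its 8 tested markers were highest in primary tumour 1. Pnpla2 and Pparg were instead highest in primary tumour 2 and lowest in primary tumour 1. Whether fat cells contribute to Scd1 was not tested.

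Scd2, a second stearoyl-CoA desaturase and a close copy of Scd1, did not share that change. It stood at 388, 618, 475 and 514 in metastases and at 462, 495, 642 and 625 in primary tumours, groups that overlapped throughout (log2 change -0.16, 95% interval -0.63 to 0.31, adjusted p = 0.684). The log2 ratio of Scd1 to Scd2 within a library was -0.77 ± 0.54 in metastases and -3.06 ± 1.20 in primary tumours (SD, n = 4). The 2.29 difference had an exact two-sided permutation p of 0.0286, the smallest that 4 against 4 allows. The permutation took the libraries as unpaired, and these genes were chosen after their values were seen, so this p is a description only. The genes are similar in sequence, so reads can be split between them, and their minor relatives Scd3 and Scd4 stayed below 4 in every library.

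The elongases add carbon units to fatty acids, and 2 of the 3 in the set rose. Elovl5, which lengthens polyunsaturated chains, stood at 107, 136, 158 and 118 against 66.2, 83.4, 62.4 and 67.0. The lowest metastasis was above the highest primary tumour, and the call held in all 19 alternatives (ratio 1.86, log2 change 0.88, SE 0.173, adjusted p = 0.0103; 9.08e-05 to 0.0444). Elovl1, which makes very long saturated and monounsaturated chains, stood at 66.4, 79.6, 133 and 67.8 against 34.8, 35.5, 49.8 and 44.3. Lung metastasis 3 stood apart at the top, yet the groups did not overlap without it (ratio 2.11, log2 change 1.01, SE 0.240, adjusted p = 0.0252). Its call was lost without lung metastasis 2 or primary tumour 1, 2 or 4 (adjusted p 0.0549 to 0.0830; 0.00219 to 0.0830 over the alternatives). Elovl6, which extends the saturated product of fatty acid synthase, stood at 68.7, 85.8, 28.0 and 80.1 against 65.2, 43.0, 71.1 and 49.9 and was lowest of all in lung metastasis 3 (log2 change 0.10, 95% interval -0.64 to 0.84).

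Lpcat1, an acyltransferase that makes the saturated phosphatidylcholine of surfactant, also rose. It stood at 164, 180.0, 211 and 148 in metastases and at 116, 57.7, 90.1 and 85.6 in primary tumours, without overlap (ratio 2.01, log2 change 1.03, SE 0.218, adjusted p = 0.0142). Without primary tumour 4 the adjusted p was 0.0511 (0.000531 to 0.0511 over the alternatives). Elovl1, Elovl5 and Lpcat1 were each highest in lung metastasis 3, whereas Scd1 was highest in lung metastasis 2. The summed lung epithelium, neutrophil and endothelial markers were all highest in lung metastasis 3 (36549, 28531 and 1949). Elovl1 and Elovl5 were lowest in lung metastasis 1, where the lung epithelium sum (20307) was second highest. That sum rests mostly on Scgb1a1 (13234 there, 21013 in lung metastasis 3). Single markers differed in order: Sftpc was lower in lung metastasis 1 (3957) than in 2 (5014), and Cyp2f2 was higher (445 against 90.2). Lpcat1 was lowest in lung metastasis 4, as was the lung epithelium sum (7851). With lung metastasis 3 left out, all 4 genes were still called (8.0% of all genes were called higher then). The contribution of lung epithelium, neutrophils or endothelium to these levels was not tested.

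**Figure D2:**
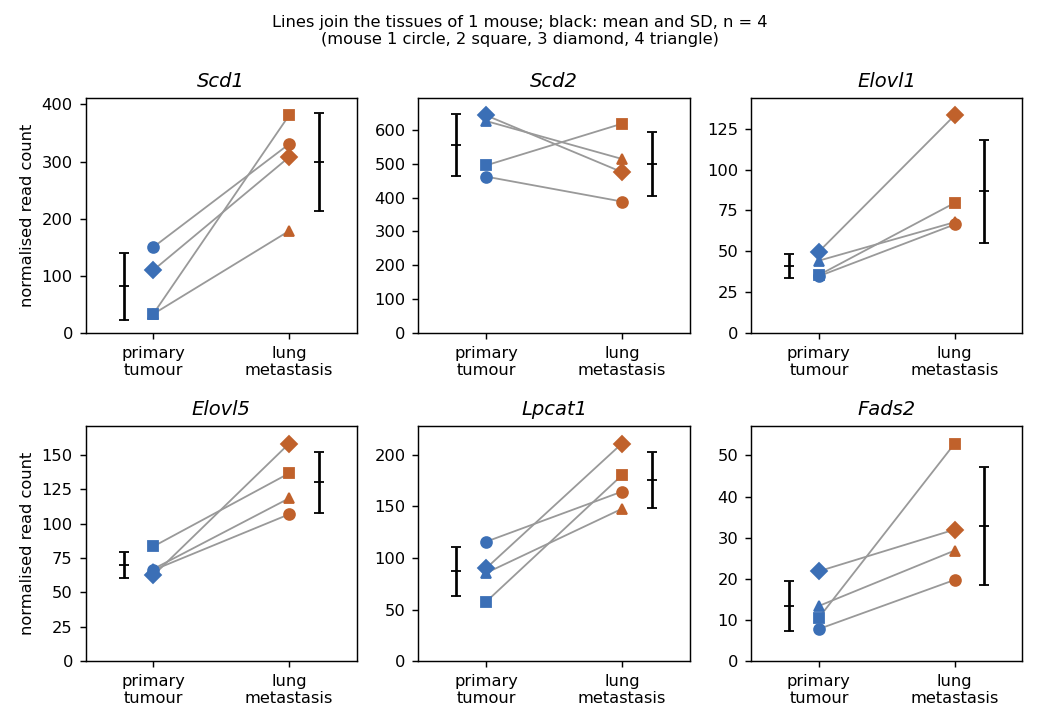
Normalised read counts (y axis, from 0) of 6 desaturase, elongase and acyltransferase genes in the primary tumour and lung metastasis of each mouse, with lines joining tissues of 1 mouse and black bars for mean and SD (n = 4). For Scd1, Elovl1, Elovl5, Lpcat1 and Fads2 all 4 lines climb; for Scd2 only that of mouse 2 does.

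The desaturases of polyunsaturated fatty acids gave a mixed picture. Fads2, the delta-6 desaturase, stood at 19.8, 52.8, 32.0 and 26.9 against 7.87, 10.6, 21.9 and 13.5. In all 4 mice the metastasis had more, although lung metastasis 1 lay below primary tumour 3 (ratio 2.44, log2 change 1.23, SE 0.357, adjusted p = 0.0590). It passed with DESeq2 (adjusted p = 0.0120) and without primary tumour 3 (adjusted p = 0.0401; 0.0120 to 0.164 over the alternatives). Fads1, the delta-5 desaturase, had means of 97.2 ± 16.5 and 87.0 ± 19.6 (log2 change 0.17, 95% interval -0.28 to 0.63).

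The enzymes that supply and build the saturated chain did not pass. Fasn, fatty acid synthase itself, stood at 233, 389, 310.4 and 284 in metastases and at 217, 179.9, 273 and 201 in primary tumours. It was higher in the metastasis of each mouse, with overlap between groups (log2 change 0.47, 95% interval 0.02 to 0.92, unadjusted p = 0.0418, limma adjusted p = 0.196). Acly, which makes cytosolic acetyl-CoA from citrate, had means of 236 ± 61.9 and 278 ± 88.8, and Acaca, acetyl-CoA carboxylase, 38.2 ± 3.72 and 35.6 ± 3.07. Acss2, which makes acetyl-CoA from acetate, had means of 21.1 ± 7.66 and 14.9 ± 2.53. For Acaca the 95% interval of the log2 change was -0.27 to 0.47, the narrowest among the fatty acid genes. Thrsp had 0 reads in lung metastases 1 and 4 and in primary tumour 2, and at most 1.55 elsewhere.

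Sterol synthesis showed another pattern, in which libraries of the same group differed more than the groups did. Of the 13 enzymes, 12 had a positive change (6312 of all 14003 genes did) and 0 passed, with a median log2 change of 0.29. The direction was not the same in every mouse, as the sums below show. Lung metastasis 3 was the lowest metastasis for 10 of the 13, and primary tumour 2 the lowest primary tumour for 9. How often these libraries were lowest over all genes was not counted. Cyp51, lanosterol demethylase, stood at 100.2, 152, 42.1 and 209 in metastases and at 104, 36.1, 113 and 83.4 in primary tumours. Its highest and lowest metastases thus bracketed all but primary tumour 2 (log2 change 0.48, 95% interval -0.60 to 1.55, adjusted p = 0.591). The same libraries were low for Fdps, which makes farnesyl diphosphate (61.4, 117, 27.8 and 109 against 73.0, 33.2, 73.5 and 59.4). Sqle, squalene epoxidase, ran at 81.3, 99.4, 42.5 and 138 against 76.7, 54.3, 72.0 and 80.0, and Fdft1, squalene synthase, at 58.1, 77.3, 32.2 and 97.4 against 60.0, 32.0, 51.4 and 53.9. Both were highest in lung metastasis 4.

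Summed over the 13 enzymes, the level was 501, 754, 309 and 799 in metastases and 509, 291, 520.0 and 464 in primary tumours. The metastasis was thus below the primary tumour in mice 1 and 3 and above it in mice 2 and 4. Lung metastasis 3 and primary tumour 2 lay near each other. The summed level of 6 carcinoma epithelium markers was also lowest there (836 among 836 to 3285, and 1367 among 1367 to 2787), but the sum rests mostly on Krt8 and Krt18. Only those 2 of the 6 were lowest in lung metastasis 3, where Krt19 (128) and Krt7 (220.1) were second highest, and 3 of the 6 were lowest in primary tumour 2, where Epcam (118) was second highest. The summed level of 7 endothelial markers was highest in both libraries (1949 and 639), as was that of 10 neutrophil markers (28531 and 1246). The summed level of 10 macrophage markers was lowest in both (743 and 1355). Cell cycle genes were lowest in lung metastasis 3 for 15 of 15 and in primary tumour 2 for 9 of 15. Their summed level was lowest in lung metastasis 3 (1193), but among primary tumours in 4 (1370) and not in 2 (1458). The part of tumour cell content and growth in the sterol levels was not tested. With both libraries left out, an alternative added after seeing the data, the same 4 members were called higher (8.57% of all genes) and again 0 sterol enzymes.

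**Figure D3:**
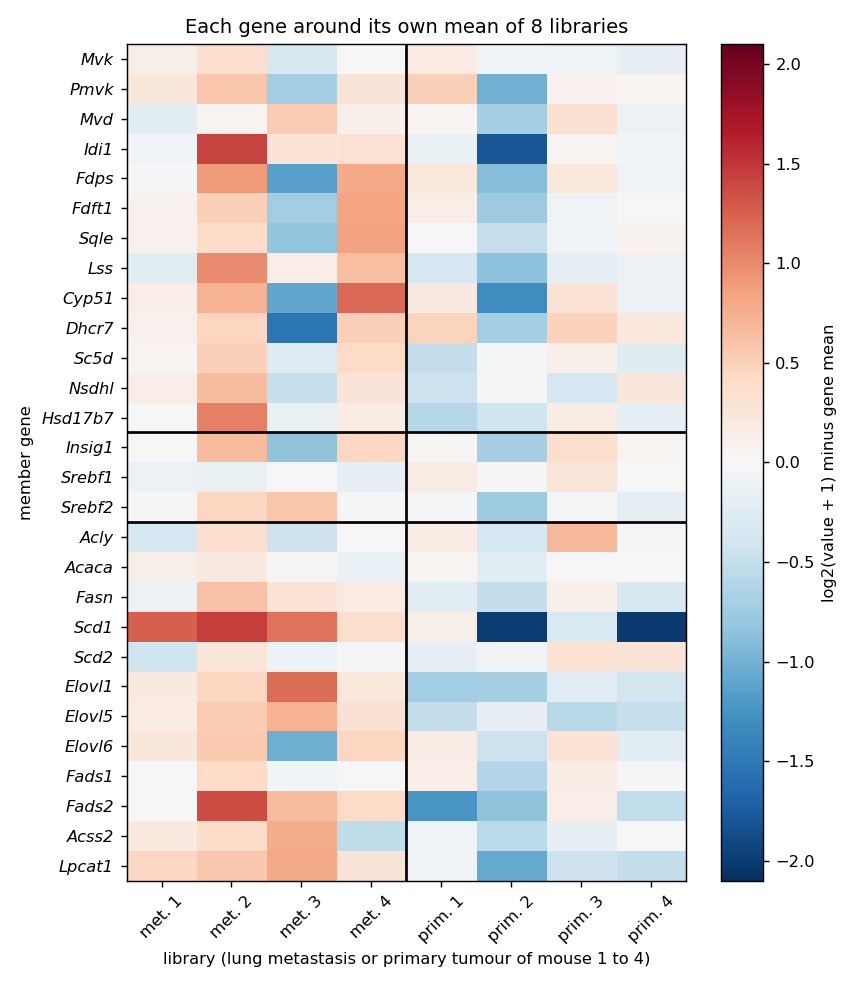
Each tested gene (rows) in each library (columns) as log2 of normalised count + 1 minus the mean of that gene over the 8 libraries; horizontal lines divide sterol enzymes, regulators and fatty acid genes. Blue cells of the sterol enzymes gather in lung metastasis 3 and primary tumour 2, while Scd1, Elovl1, Elovl5 and Lpcat1 divide by tissue.

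Among the sterol enzymes, the largest changes were those of Idi1 and Lss. Lss, which closes squalene epoxide into lanosterol, stood at 20.6, 49.3, 26.7 and 38.1 against 18.9, 12.8, 20.9 and 22.2. In all 4 mice the metastasis had more, with a slight overlap of the groups (log2 change 0.77, SE 0.293, adjusted p = 0.144, and 0.0464 with DESeq2; 0.0464 to 0.298 over the alternatives). Idi1, an isomerase of the isoprenoid units, stood at 5.73, 17.7, 7.50 and 7.65 against 5.36, 1.03, 6.27 and 5.71 (log2 change 0.97, 95% interval -0.08 to 2.01, adjusted p = 0.252). Lung metastasis 2 at the top and primary tumour 2 at the bottom came from the same mouse. Hsd17b7, a ketosteroid reductase of the late pathway, had means of 25.2 ± 11.1 and 16.4 ± 4.01 (adjusted p = 0.315), and Sc5d, sterol desaturase, 38.2 ± 9.26 and 29.5 ± 5.50 (adjusted p = 0.403).

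The remaining enzymes lay closer to no difference. The mevalonate kinases and decarboxylase had means of 19.7 ± 3.98 and 18.5 ± 2.09 for Mvk, 38.6 ± 13.2 and 34.2 ± 13.4 for Pmvk, and 26.0 ± 6.10 and 22.3 ± 6.40 for Mvd, metastasis before primary tumour. Nsdhl, which removes a methyl group from lanosterol products, stood at 14.2 ± 4.73 and 11.2 ± 2.71. Dhcr7, the last reductase of cholesterol synthesis, had the only negative change of the sterol enzymes, with means of 24.4 ± 11.9 and 26.6 ± 8.92 and 7.44 in lung metastasis 3. Without that library its log2 change was 0.23, and the change of Mvk, Pmvk or Mvd also turned sign under a setting given in the closing section.

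The regulators did not move together. Srebf2, whose product drives sterol genes, stood at 104, 140.0, 153 and 101 in metastases and at 99.1, 60.6, 98.7 and 88.0 in primary tumours. The groups did not overlap, as was the case for 5 of the 28 genes in this direction (17.9%, against 10.4% of all genes), but the change missed the threshold (log2 change 0.52, SE 0.213, adjusted p = 0.172). Srebf1, whose product drives fatty acid genes, stood at 114, 111, 124 and 110.0 against 139, 126, 148 and 124. It was lower in the metastasis of each mouse, by little (log2 change -0.22, 95% interval -0.53 to 0.09, adjusted p = 0.381). Insig1, the sterol sensor that retains SREBP and is itself an SREBP target, stood at 47.8, 76.5, 26.4 and 65.5 against 48.8, 29.1, 62.3 and 50.1, low in the same libraries as the sterol enzymes (adjusted p = 0.853).

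Other genes of these pathways, listed by role, were read in the same fit: 71 were tested in 6 lists, 7 were higher (9.86%, near the 7.18% of all genes) and 1 was lower (1.96% of all genes were). Among 8 further sterol genes only Lbr passed (12.5%, against 7.18% of all genes called higher). It encodes a sterol reductase of the nuclear envelope (235 ± 49.8 against 124 ± 10.4, log2 change 0.90, adjusted p = 0.0102); its call held in all 19 alternatives. Sc4mol, a methylsterol oxidase, and Ebp, a sterol isomerase, had adjusted p of 0.466 and 0.478. Of 10 genes of SREBP processing and lipoprotein uptake, 0 passed. By limma, 2 of the 10 had an unadjusted p under 0.05, beside 3225 of all 14003 genes. In this list edgeR called 0 and DESeq2 called Mbtps1. The SREBP proteases Mbtps1 (157 ± 19.4 against 213 ± 5.28, adjusted p = 0.0979) and Mbtps2 (45.7 ± 13.2 against 64.7 ± 6.98, adjusted p = 0.203) lay below the primary tumours in every metastasis, as did 7.56% of all genes. Mbtps1 passed when libraries were weighted by quality (adjusted p = 0.0439) and by DESeq2 (adjusted p = 0.00933), within a range of 0.00933 to 0.247. Mylip, a ubiquitin ligase, stood at 19.4 ± 10.5 against 35.7 ± 13.6 (adjusted p = 0.231).

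Of 9 genes of the LXR route, which exports sterol, 1 rose (11.1%, against 7.18% of all genes) and 1 fell (against 1.96%). Nr1h3, the gene of LXR-alpha, rose from 5.94 ± 2.30 to 19.1 ± 8.13 (log2 change 1.51, adjusted p = 0.0246), a call lost without lung metastasis 1 or 2 or primary tumour 3 or 4 (0.0514 to 0.0797; 0.000825 to 0.0797 over the alternatives). Apoe, the lipid carrier abundant in macrophages, stood at 965, 1329, 458 and 856 in metastases and at 3270, 1672, 4279 and 3674 in primary tumours. Every metastasis lay below every primary tumour (log2 change -1.85, adjusted p = 0.0166). Blocking on mouse gave 0.0536, and the call was also lost without primary tumour 1, 3 or 4 (0.0542 to 0.0633; 1.1e-05 to 0.0633 over the alternatives). Within the primary tumours, Apoe was lowest in 2, as was the sum of 10 macrophage markers (1355 there, 2861 to 3072 in the others), and over all metastases that sum was 743 to 1878. Singly, 8 of the 9 tested macrophage markers were lowest in primary tumour 2, but Cd68 was highest there (81.6). Abcg1, a sterol exporter, and Lpcat3 had adjusted p of 0.288 and 0.394.

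Among 18 further fatty acid genes 3 rose (16.7%, against 7.18% of all genes). Mid1ip1, which activates acetyl-CoA carboxylase and is a relative of Thrsp, stood at 80.5 ± 24.8 against 34.5 ± 8.11 (log2 change 1.18, adjusted p = 0.0136, and 0.0541 without primary tumour 4). Fads3 stood at 41.8 ± 23.9 against 12.0 ± 5.15 (log2 change 1.65, adjusted p = 0.0278) and lost its call without lung metastasis 1 or 2 or primary tumour 1, 3 or 4 (0.0568 to 0.0946). Acsl1, an acyl-CoA synthetase, stood at 38.2 ± 14.6 against 18.6 ± 2.31 with an adjusted p of 0.0483, and was called in 8 of 19 alternatives. It lost the call when blocked on mouse (adjusted p = 0.0610), with either other scaling, a pseudocount of 5 or a filter at 5, and without lung metastasis 1 or 2 or any of the primary tumours (0.0505 to 0.152 over these; 0.00597 to 0.152 over all alternatives). Ptplad2, a dehydratase of the elongation cycle, had an adjusted p of 0.0562, and of 0.0439 when blocked on mouse.

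Of 16 genes that assemble glycerolipids, 2 rose (12.5%, against 7.18% of all genes); counts this small are not read as a result about the list. Dgat2, which makes triglyceride, stood at 23.9 ± 19.0 against 4.51 ± 2.86 (log2 change 2.04, adjusted p = 0.0252); its highest value, 52.1, was in lung metastasis 3, and its call was lost without lung metastasis 1 or primary tumour 1, 3 or 4 (0.0633 to 0.0865). Gpam, which adds the first acyl chain, stood at 67.4 ± 18.3 against 34.6 ± 10.6 (adjusted p = 0.0401). Gpam was no longer called without lung metastasis 1 or 2 or primary tumour 2, 3 or 4, with edgeR, or with lung metastasis 3 and primary tumour 2 both left out (0.0531 to 0.111). Chpt1, a choline phosphotransferase, stood at 44.5 ± 16.1 against 23.2 ± 7.71 (adjusted p = 0.128) and Lpin1, a phosphatidate phosphatase, at 20.4 ± 7.16 against 11.1 ± 4.00 (adjusted p = 0.165). Chpt1 passed with array weights, with DESeq2 and without lung metastasis 4 (0.0131 to 0.0479; 0.0131 to 0.308 over its alternatives).

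Fatty acid oxidation, the opposite route, had 0 of 10 genes called and a median log2 change of 0.06. By limma, 1 of the 10 had an unadjusted p under 0.05, beside 3225 of all 14003 genes. In this list edgeR and DESeq2 called 0. Cpt1a, which admits fatty acids to the mitochondrion, stood at 86.1 ± 19.9 against 62.3 ± 9.42 (limma adjusted p = 0.215), Acadm at 91.9 ± 25.7 against 124 ± 20.9 (0.278), Cpt2 at 33.0 ± 2.33 against 28.0 ± 4.34 (0.461) and Acadvl at 29.5 ± 1.89 against 33.6 ± 4.69 (0.590).

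**Figure D4:**
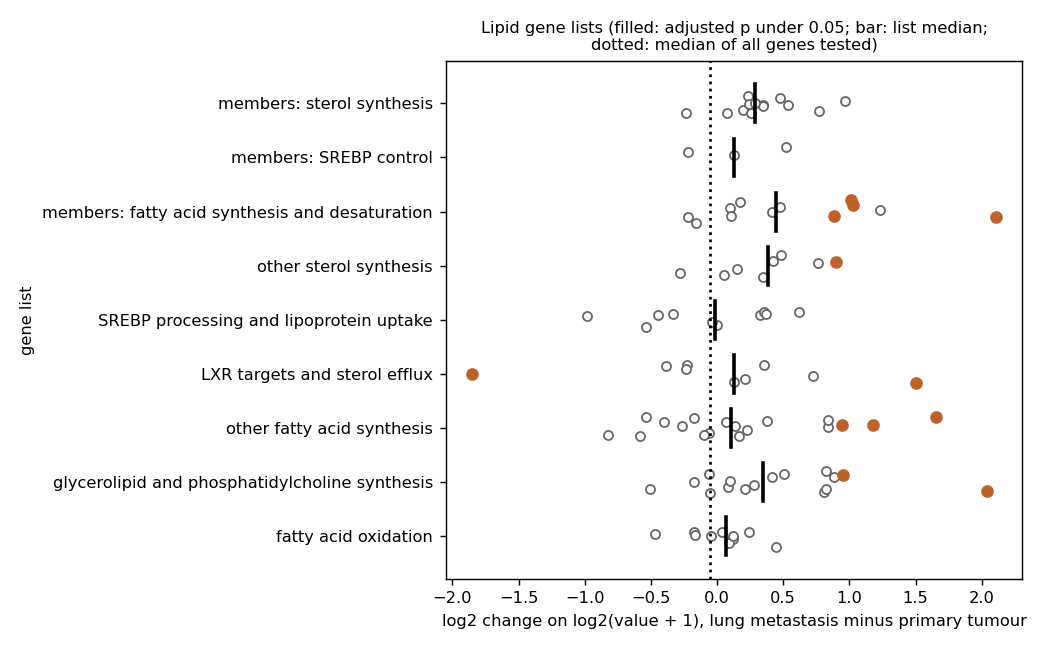
Log2 change between lung metastasis and primary tumour (x axis) of every tested gene in the 3 member groups and 6 further lists (y axis); filled points passed an adjusted p of 0.05, bars are list medians and the dotted line is the median of all genes. The filled points lie in the fatty acid, glycerolipid and LXR lists apart from Lbr, with Apoe at -1.85 the only filled point on the left.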

How the data were processed

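The authors deposited 1 table of signal values, which they call CPM; as judged from the values, these are reads per gene over an adjusted library size, set to 1000000, a total that the columns only come near. Per the submitters' processing notes the build was mm9; the aligner and counter, and whether strand was used, are not stated in those sources. The 12 pancreatic columns were not used. Divided by what 1 read is worth in its library, 100% of values came out whole (tolerance 0.05 reads), and the reads so recovered were tested with edgeR 4.0.16 and DESeq2 1.42.0 as alternatives. The test was limma 3.58.1 in R 4.3.3, with an intensity trend on log2(value + 1), which understates changes of low genes, over 14003 genes of the 8 BC libraries, adjusted by Benjamini-Hochberg and called under 0.05; it was checked on simulated data. Every adjusted p is limma's unless another tool is named. The 4 mice carry 1 tumour line, so p-values measure only the spread between these samples.

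Members and lists were chosen with earlier results of these data known. All members are accounted for, with full values for called ones and the 8 next by p; 4 genes of each pathway list with the smallest p are named, except where a gene is not reported here. Alternatives were 2 pseudocounts, 2 filters, 2 scalings, the mouse as a block, array weights, both count tools and each library left out. The numbers in the titles mark the mouse, so they pair the tissues; the correlation of their deviations had a median of 0.02 (-0.15 to 0.10).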

Additional observations from a re-analysis of the deposited data

Results flagged for a closer look

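In 2 of 58 groups of 4 tested, a member had a sample far from the other 3; chance flags about 1 group in 20. Idi1 stood at 17.7 in lung metastasis 2, against 5.73 to 7.65 in the other lung metastases. Fads1 stood at 122 in lung metastasis 2, against 86.7 to 90.8 in the others. Lung metastasis 2 was also the highest metastasis for 17 of the 28 tested members, a count without the share over all genes.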

How the results depend on the processing

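Members called higher numbered 1 to 5 when each library was left out in turn and 3 to 6 under the other alternatives, against 4; 0 members were called lower under any alternative run. Over all genes, calls higher ranged from 627 to 1237 and calls lower from 84 to 431 with each library left out, against 1005 and 274. Calls higher were 644 with a filter at 5 and 1536 with array weights. Calls lower were 176 with the replicate block, 747 with array weights, 517 with DESeq2 and 506 with lung metastasis 3 and primary tumour 2 left out together. In the pathway lists, calls higher ranged from 1 to 10 and calls lower from 0 to 2 with each library left out, and were 11 and 3 with array weights; calls lower were 0 with the replicate block, 2 with DESeq2 and 3 with both libraries left out. Pairing by mouse kept the same 4 members; among the named genes it changed the calls of Apoe, Acsl1 and Ptplad2, given above. The log2 change turned sign for Mvd with both libraries left out (-0.10) and for Dhcr7 with array weights (0.017). With each library left out, the change ranged from -0.033 to 0.20 for Mvk, -0.11 to 0.47 for Pmvk, -0.51 to 0.23 for Dhcr7, -0.087 to 0.43 for Insig1 and -0.064 to 0.46 for Elovl6; the cause was not tested. Thrsp, at up to 1.55 normalised counts, was left untested by the filter of at least 1 in at least 4 libraries. Median-ratio and TMM scaling put the median change of all genes at -0.02 and -0.05.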

Other observations

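Mlxipl, which encodes the glucose-sensing lipogenic factor ChREBP and was singled out after its values were seen, stood at 2.06, 5.80, 5.07 and 2.60 in lung metastases and at 9.77, 0.868, 23.4 and 8.03 in primary tumours (limma adjusted p = 0.498). In primary tumours it was lowest in 2, as were 18 of the 28 tested members, a count without the share over all genes.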
